A study of Mus musculus with 17 samples.

Results

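The MHC class I presentation genes described here are 10 of the 54146 genes in the files. They were taken by gene symbol and are the heavy chains H2-K1, H2-D1 and H2-T23, the light chain B2m, the loading genes Tap1, Tap2 and Tapbp, the proteasome subunits Psmb8 and Psmb9, and the transactivator Nlrc5. All 10 passed the filter on low counts. Total RNA of whole lung was sequenced from mice labelled as Clic4 knockout (KO) and from wild-type controls (WT), in a series on the part of this chloride intracellular channel gene in the host during metastasis of breast cancer. The groups were KO lungs at day 14 (5 libraries), WT lungs at day 14 (6 libraries), KO lungs at day 0 (2 libraries) and WT lungs at day 0 (4 libraries). Age differed with the day (8 weeks in the day 14 groups, 6 weeks in the day 0 groups), and the effects of age and day cannot be told apart. Every library carries the strain label FVB/6DT1, in which 6DT1 names a mammary tumour line of the mouse, and the labels do not state what was given between the days. The labels do not say how the KO allele was made or whether it was lost in every cell. Group sizes follow the sample labels, from which the series' design text departs. Libraries are called by group and number. The labels do not tie libraries to animals, so each p-value measures only how far these samples spread, and that spread may be technical.

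MHC class I molecules carry peptides from inside a cell to its surface, where CD8 T cells and receptors of natural killer (NK) cells read them. The proteasome cuts the peptides, the transporter made of Tap1 and Tap2 brings them into the endoplasmic reticulum, tapasin (Tapbp) holds the transporter next to empty class I molecules, and a stable molecule needs a heavy chain paired with beta-2-microglobulin (B2m). Interferons raise the whole pathway in most cells through factors such as Irf1 and Nlrc5, and put the inducible subunits Psmb8 and Psmb9 into new proteasomes in place of Psmb5 and Psmb6.

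The members lie together in part. H2-K1 (chr17:33996017-34000347, minus strand), Tapbp (chr17:33915899-33929292, plus), Psmb9 (chr17:34181987-34187764, minus), Tap1 (chr17:34187553-34197225, plus), Psmb8 (chr17:34197721-34201454, plus), Tap2 (chr17:34203527-34216321, plus), H2-D1 (chr17:35262730-35267499, plus) and H2-T23 (chr17:36029773-36032855, minus) are in the H2 region of chromosome 17. B2m is on chromosome 2 (chr2:122147686-122153083, plus) and Nlrc5 on chromosome 8 (chr8:94434356-94527272, plus). Positions are those of GENCODE on GRCm38, the assembly that mm10 names. Promoter windows of RefSeq (build GRCm38.p6, 250 bases before to 50 bases after a gene's start) matched 8 of the 10 members by symbol, all but Tap2 and Nlrc5. H2-K1 had a further window at lower positions, which was left out, so each of the 8 is searched in 1 window. The windows below are shown because these members varied together from library to library, as described further on. They are those of H2-K1 (chr17:34000298-34000597, minus strand), H2-D1 (chr17:35262844-35263143, plus), H2-T23 (chr17:36032652-36032951, minus), B2m (chr2:122147437-122147736, plus) and Tap1 (chr17:34187306-34187605, plus), each written along its gene from 5′ to 3′. Capitals mark every match to 1 of the motifs named after the sequences.
H2-K1: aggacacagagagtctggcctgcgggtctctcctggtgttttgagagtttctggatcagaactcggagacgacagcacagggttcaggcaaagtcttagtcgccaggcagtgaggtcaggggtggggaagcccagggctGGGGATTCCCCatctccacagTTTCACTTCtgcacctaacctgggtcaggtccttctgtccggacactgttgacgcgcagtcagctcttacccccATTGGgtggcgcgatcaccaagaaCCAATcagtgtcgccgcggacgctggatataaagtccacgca
H2-D1: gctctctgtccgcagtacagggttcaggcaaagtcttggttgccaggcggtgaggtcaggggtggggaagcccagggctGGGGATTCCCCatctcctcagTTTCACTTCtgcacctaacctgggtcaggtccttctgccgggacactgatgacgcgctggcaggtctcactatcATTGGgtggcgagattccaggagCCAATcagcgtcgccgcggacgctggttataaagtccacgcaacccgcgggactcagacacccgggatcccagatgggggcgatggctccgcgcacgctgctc
H2-T23: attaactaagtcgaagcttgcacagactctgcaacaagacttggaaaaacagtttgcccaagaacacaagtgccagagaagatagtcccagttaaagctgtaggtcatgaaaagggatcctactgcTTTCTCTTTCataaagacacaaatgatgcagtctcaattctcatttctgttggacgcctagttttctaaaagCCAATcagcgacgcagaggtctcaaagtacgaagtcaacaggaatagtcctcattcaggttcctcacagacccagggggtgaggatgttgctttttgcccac
B2m: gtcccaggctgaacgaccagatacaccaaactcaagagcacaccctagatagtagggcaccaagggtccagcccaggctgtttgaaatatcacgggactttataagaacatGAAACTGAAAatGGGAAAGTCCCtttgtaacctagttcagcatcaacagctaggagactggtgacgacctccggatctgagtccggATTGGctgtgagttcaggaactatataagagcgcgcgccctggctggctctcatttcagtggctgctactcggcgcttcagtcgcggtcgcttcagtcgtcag
Tap1: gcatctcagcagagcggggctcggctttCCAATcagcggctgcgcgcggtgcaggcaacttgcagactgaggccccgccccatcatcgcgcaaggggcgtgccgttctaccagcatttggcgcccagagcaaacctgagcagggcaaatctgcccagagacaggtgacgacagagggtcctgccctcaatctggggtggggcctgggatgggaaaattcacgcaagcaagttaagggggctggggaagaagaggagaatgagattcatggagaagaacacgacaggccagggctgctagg

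Motifs were searched on both strands. Shares of all windows refer to 32851 windows, which leave out 1 chromosome that holds no member. The core of the interferon-stimulated response element, spelled GAAA, any 2 bases and GAAA, was in the windows of B2m and H2-T23, and in 3.44% of all windows. In B2m it lay 139 to 130 bases before the start and in H2-T23 124 to 115 bases before it. A shorter spelling, GAA, any 2 bases and GAAA, was added after the windows were seen. Its parts are spaced differently, so a match to the core need not match it. This spelling was in the windows of H2-K1 and H2-D1 alone among the 8, and in 7.52% of all windows. A form of the NF-kappaB site, spelled GGGA, any 4 bases and CC, was in B2m, H2-D1 and H2-K1, and in 20.7% of all windows. In B2m it starts shortly after the response element match, and in H2-K1 and H2-D1 shortly before the match to the shorter spelling. ATTGG, the Y box bound by NF-Y, was in 7 of the 8 windows and in 37.4% of all windows. TTCNNNGAA, the gamma-activated site, was in the Psmb8 window alone among the 8 and in 8.3% of all windows. Tap1 and Psmb9 are read in opposite directions from 1 stretch of DNA, and 275 bases of their windows are the same DNA. Their Y box matches are the same bases read from the 2 strands, so 1 match is counted in 2 of the 7 windows. A match of letters is a description, not a site or a cause.

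The libraries held 20607811 to 35743830 expected counts, and 19557 genes were tested. Clic4 averaged 85.2 FPKM in KO lungs at day 14 and 263.9 FPKM in WT lungs at day 14, and 82.6 FPKM in KO lungs at day 0 and 240.7 FPKM in WT lungs at day 0, with no overlap between genotypes. Clic4 mRNA thus remained in every KO library, at 76.9 to 99.7 FPKM, and the fitted KO over WT fold was 0.322 at day 14 and 0.346 at day 0 (adjusted p = 9.95e-09 and 1.93e-05 by edgeR). FPKM are fragments per kilobase of gene, scaled to the size of the library by the authors, and allow levels to be set side by side between genes. Alveolar type 2 cell markers, led by the surfactant genes, summed to between 21093 and 29871 FPKM, so markers of the labelled tissue were abundant. KO day 14 library 2 and WT day 14 library 5 stood apart from the other 15 in the members, and results that rest on them are given with and without them.

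**Figure D1:**
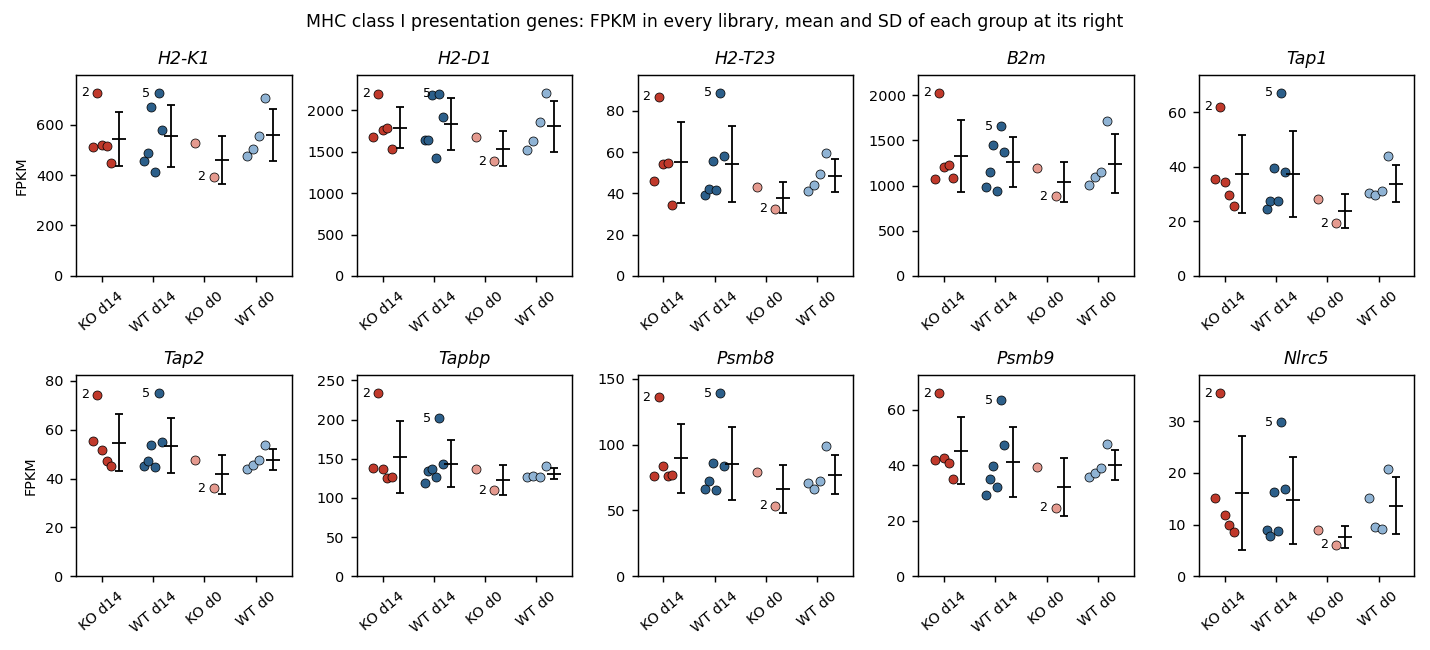
FPKM (linear axis from 0) of the 10 members in every library, by group (KO d14, WT d14, KO d0 and WT d0 from left to right); points are libraries, the bar at the right of each group is its mean with the SD. KO day 14 library 2 and WT day 14 library 5 (numbered) lie at or near the top of every panel, and KO day 0 library 2 lies at the bottom.

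The classical heavy chain H2-D1, which presents peptides to CD8 T cells, had the highest level of the 10. It measured 1679, 2200.4, 1760.1, 1782 and 1533 FPKM in KO libraries 1 to 5 at day 14, against a lowest of 1428, a median of 1780.0 and a highest of 2201 FPKM in WT libraries at day 14. At day 0 it measured 1682 and 1383 FPKM in KO libraries, against 1519, 1631, 1857 and 2210.3 FPKM in WT libraries. The groups overlapped on both days, and the highest library over the lowest was 1.6-fold, the narrowest range of the members. H2-K1, the other classical heavy chain of the list, measured 509.7, 725.4, 520.6, 513.4 and 448 FPKM in KO libraries 1 to 5 at day 14, against 412.5, 532.3 and 724.6 FPKM as lowest, median and highest of WT. Its day 0 values were 527.4 and 393.3 FPKM in KO libraries, against 473.4, 502.4, 555.8 and 704.4 FPKM in WT libraries. H2-D1 over H2-K1 stayed between 3.03 and 3.61 in all 17 libraries. H2-T23 encodes Qa-1, a nonclassical heavy chain read by the NK receptor that Klrd1 and Klrc1 form. Its level was far lower, from 32.5 to 88.7 FPKM over the 17 libraries. Its highest 2 values were 88.7 FPKM in WT day 14 library 5 and 86.9 FPKM in KO day 14 library 2.

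B2m, the light chain shared by every class I molecule, measured 1076, 2025, 1200.3, 1224 and 1087 FPKM in KO libraries 1 to 5 at day 14, against 942.5, 1260.0 and 1653 FPKM as lowest, median and highest of WT at day 14. At day 0 it measured 1193 and 879.6 FPKM in KO libraries, against 1008, 1096, 1149 and 1719 FPKM in WT libraries. The highest of the 17 was KO day 14 library 2. B2m over the sum of the 3 heavy chains was 0.461 to 0.672, highest in that same library, with means of 0.546 ± 0.0737 in KO lungs and 0.512 ± 0.0324 in WT lungs at day 14 (SD, n = 5 and 6), and 0.508 ± 0.0306 in KO lungs and 0.511 ± 0.0474 in WT lungs at day 0 (n = 2 and 4). Other heavy chains of the H2 region add to the partners of B2m, so this ratio is not a stoichiometry. The largest of these, H2-Q4, ran from 120.7 to 253.8 FPKM.

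Of the loading genes, Tapbp was the highest at 109.5 to 233.7 FPKM, Tap2 ran from 36.1 to 75.0 FPKM and Tap1 from 19.3 to 67.2 FPKM. Tap1 measured 35.4, 62.0, 34.5, 29.5 and 25.8 FPKM in KO libraries 1 to 5 at day 14, against 24.6, 32.8 and 67.2 FPKM as lowest, median and highest of WT at day 14. Day 0 values were 28.1 and 19.3 FPKM in KO libraries, against 30.3, 29.8, 31.3 and 44.1 FPKM in WT libraries. Both KO libraries at day 0 lay under all 4 WT libraries. Tap1 and Tap2 form 1 transporter in equal parts, but Tap2 mRNA was above Tap1 mRNA in each group mean, at 54.7 and 37.5 FPKM in KO lungs at day 14 and 53.5 and 37.4 FPKM in WT lungs at day 14.

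The inducible proteasome subunit Psmb8 ran from 53.5 to 139.2 FPKM and Psmb9 from 24.8 to 66.0 FPKM. Psmb8 measured 76.1, 136.0, 83.5, 75.9 and 77.1 FPKM in KO libraries 1 to 5 at day 14, against 65.3, 78.1 and 139.2 FPKM as lowest, median and highest of WT at day 14. At day 0 it measured 79.2 and 53.5 FPKM in KO libraries, against 71.1, 66.3, 72.7 and 98.9 FPKM in WT libraries. One library in each day 14 group stood high and the rest overlapped. Nlrc5, the transactivator that binds class I promoters, had the lowest level and the widest range, from 6.1 to 35.4 FPKM or 5.81-fold. It measured 15.1, 35.4, 11.9, 9.96 and 8.47 FPKM in KO libraries 1 to 5 at day 14, against 7.71, 12.6 and 29.8 FPKM as lowest, median and highest of WT at day 14. Its values at day 0 were 9.03 and 6.1 FPKM in KO libraries, against 15.2, 9.44, 9.21 and 20.8 FPKM in WT libraries. The day 14 groups overlapped, and in FPKM both KO libraries at day 0 lay under the 4 WT libraries by a narrow margin.

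By the median over 17 libraries the FPKM order was H2-D1, B2m, H2-K1, Tapbp, Psmb8, Tap2, H2-T23, Psmb9, Tap1 and Nlrc5. Tap2 (median 47.4 FPKM) and H2-T23 (45.8 FPKM), and Psmb9 (39.5 FPKM) and Tap1 (30.3 FPKM), were neighbours whose ranges over libraries overlapped almost wholly.

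The question at day 14 is whether the Clic4 knockout in the host goes with another level of class I presentation. The fitted KO minus WT differences at day 14 were small in all 10 genes, from -0.03 for H2-K1 and H2-D1 to 0.18 for Nlrc5 on the log2 scale, and the median was 0.03 against 0.001 over all genes tested. H2-D1 averaged 1791 ± 248.8 FPKM in KO lungs and 1835 ± 316.4 FPKM in WT lungs (SD, n = 5 and 6), and B2m 1322 ± 398.1 FPKM in KO lungs and 1258 ± 279.0 FPKM in WT lungs. No member passed. By edgeR's quasi-likelihood test with Benjamini-Hochberg adjustment over all genes the adjusted p lay between 0.896 (Psmb9) and 0.998 (Tap1), and 0 of 10 members had an unadjusted p under 0.05 by edgeR, DESeq2 or limma-voom. Over all genes, 0.107% were called by edgeR, 0.558% by DESeq2 and 0.0818% by limma-voom at an adjusted p under 0.05, and 8.95% had an unadjusted p under 0.05 by edgeR. The groups overlapped in all 10 members, and failed to overlap in 0.982% of all genes.

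The precision of the day 14 data differed between members. The 95% interval of the KO over WT fold was 0.814 to 1.18 for H2-D1, 0.762 to 1.26 for H2-K1, 0.811 to 1.27 for Tap2 and 0.768 to 1.42 for B2m. It was 0.655 to 1.54 for Tap1 and 0.605 to 2.12 for Nlrc5, so a doubling of Nlrc5 lay inside it. These widths follow the spread between libraries of 1 group. Among cell type markers at day 14, those of NK cells were negative in 6 of 6 (median log2 -0.70, 3 with an unadjusted p under 0.05 by edgeR). Those of alveolar type 1 cells were negative in 5 of 5 (-0.15, 4 such genes) and those of neutrophils in 4 of 4 (-0.19, 0 such genes). Erythroid markers were positive in 5 of 5 (0.52, 0 such genes). None was called, and their part in the members' values was not tested.

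**Figure D2:**
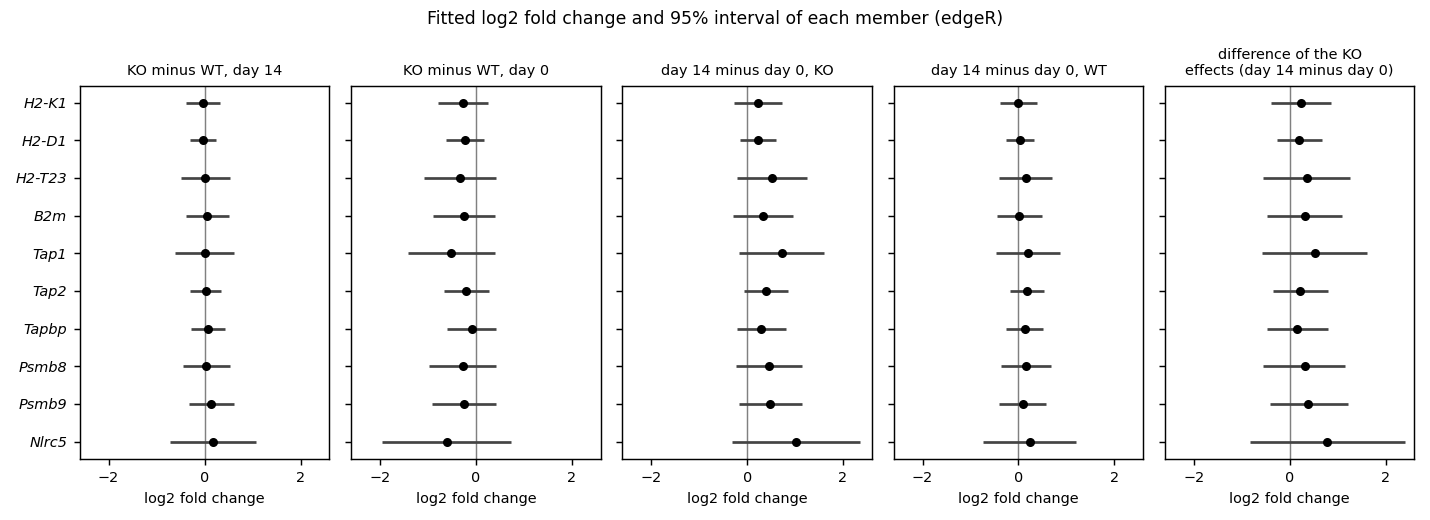
Fitted log2 fold change (x axis) of each member in the 5 comparisons (panels), with points for the estimate and lines for the 95% interval from edgeR. Every interval crosses 0; those of Nlrc5 and Tap1 are the widest and those of H2-D1 the narrowest in most panels.

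The sign of the day 14 difference was set by single libraries. Without KO day 14 library 2 the fitted value was negative in all 10 members, with a median of -0.16. Without WT day 14 library 5 it was positive in all 10, with a median of 0.20. Without WT day 14 library 1, 2 or 4 the medians were -0.02, -0.01 and -0.03. Without both high libraries, 4 were positive and 6 negative, with a median of -0.01, and no member passed in any of these fits (adjusted p of at least 0.655 by edgeR). Nlrc5 shows the swing best, with 0.18 in the full data, -0.23 without KO day 14 library 2, 0.54 without WT day 14 library 5 and 0.13 without both.

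**Figure D3:**
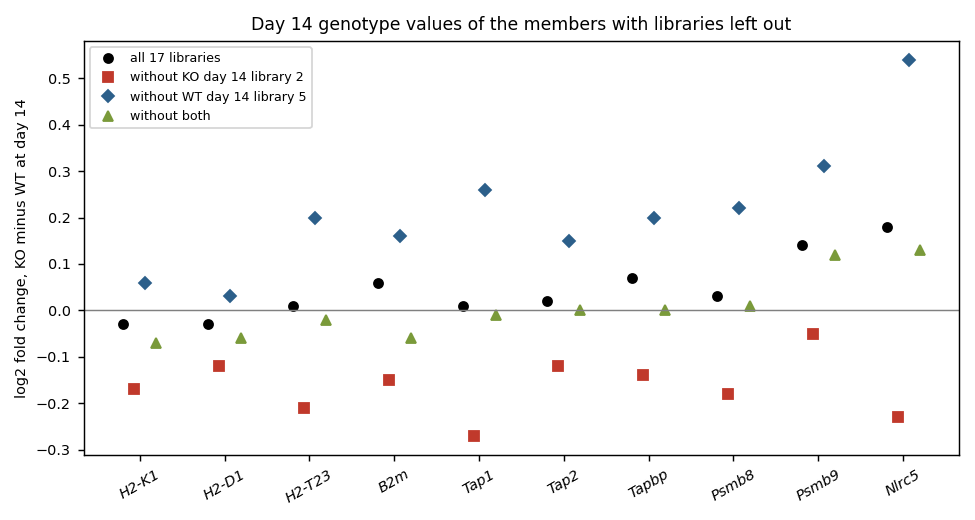
Fitted log2 fold change (y axis), KO minus WT at day 14, of each member (x axis) with all 17 libraries (circles), without KO day 14 library 2 (squares), without WT day 14 library 5 (diamonds) and without both (triangles). All squares lie under 0 and all diamonds above it.

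At day 0 all 10 members had a negative fitted KO minus WT difference, and none passed. The log2 values ran from -0.61 (SE 0.624) for Nlrc5 and -0.52 (SE 0.421) for Tap1 to -0.09 (SE 0.243) for Tapbp, with a median of -0.26 against 0.001 over all genes. The adjusted p was 0.844 to 0.966 by edgeR, and 0 of 10 members had an unadjusted p under 0.05 by edgeR, DESeq2 or limma-voom. Of all genes, 0.0256% were called by edgeR, 0.133% by DESeq2 and 0.0153% by limma-voom, and 6.74% had an unadjusted p under 0.05 by edgeR. With 2 KO libraries against 4 WT libraries, 18% of all genes had groups that did not overlap, and by CPM 1 of the 10 members, Tap1, was among them; by FPKM Nlrc5 was another. The 10 negative signs are not 10 observations, because the members vary together and KO day 0 library 2 was the lowest of the 17 libraries in each of them. Without that library the median was -0.07 and 8 members were negative. Without KO day 0 library 1 it was -0.50, and without WT day 0 library 4 it was -0.14, with all 10 negative in each. Cell type markers also differed in sign between the genotypes at day 0. NK cell markers were negative in 6 of 6 (median log2 -1.13, 5 with an unadjusted p under 0.05 by edgeR), B cell markers in 5 of 5 (-1.06, 2 such genes), T cell markers in 7 of 7 (-0.47, 1 such gene) and monocyte markers in 4 of 4 (-0.27, 0 such genes). Neutrophil markers were negative in 4 of 4 (-0.15, 0 such genes) and endothelium markers in 4 of 5 (-0.21, 2 such genes). Alveolar type 2 cell markers were positive in 6 of 6 (median log2 0.25, 4 such genes) and alveolar macrophage markers in 5 of 5 (0.40, 1 such gene). Fibroblast markers were positive in 5 of 5 (0.16, 0 such genes). None of these markers was called by edgeR, and their part in the members' values was not tested.

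Between the days, KO lungs at day 14 had positive fitted differences from KO lungs at day 0 in all 10 members, with log2 values from 0.23 (H2-K1 and H2-D1) through 0.72 (Tap1, SE 0.414) to 1.02 (Nlrc5, SE 0.619) and a median of 0.43. WT lungs at day 14 had smaller differences from WT lungs at day 0, from 0.00 (H2-K1) to 0.24 (Nlrc5, SE 0.451), with a median of 0.14. No member passed in either. The adjusted p by edgeR was 0.61 to 0.797 in KO and 0.761 to 0.996 in WT, and no member had an unadjusted p under 0.05 by edgeR or limma-voom. DESeq2 gave 1 member, Tap2, an unadjusted p under 0.05 in KO and 0 in WT, and called 0 in both. In KO, 0% of all genes were called by edgeR, 0.539% by DESeq2 and 0% by limma-voom, and 9.05% had an unadjusted p under 0.05 by edgeR. In WT, 0% were called by edgeR, 0.669% by DESeq2 and 0.00511% by limma-voom, and 9.06% had an unadjusted p under 0.05 by edgeR. Day 14 and day 0 libraries did not overlap for 2 members in KO, Tap1 and Nlrc5, where 11.8% of all genes did not, and for 0 members in WT, where 2.58% of all genes did not. These counts are by CPM; by FPKM the KO libraries of the 2 days overlapped for Tap1 and for Nlrc5 as well. These day values also rested on single libraries. In KO the median was 0.24 without KO day 14 library 2, 0.21 without KO day 0 library 2 and 0.65 without KO day 0 library 1. In WT it was -0.04, with 9 members negative, without WT day 14 library 5. Neutrophil markers were 4 of 4 positive in KO and WT (median log2 1.83 and 1.92, with 3 and 4 unadjusted p under 0.05 by edgeR). Monocyte markers were 4 of 4 positive (0.71 and 0.18), and alveolar type 2 markers 6 of 6 and 5 of 6 negative (-0.31 and -0.04). All 18 genes of each interferon list described below were positive (interferon gamma 1.47 and 0.52, type I 1.74 and 0.67). None was called by edgeR. Their part in the members' values was not tested.

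The difference of the KO effects between the days, which is the day 14 minus day 0 change in KO lungs less that in WT lungs, was positive in all 10 members, from 0.16 (Tapbp) to 0.78 (Nlrc5, SE 0.75) with a median of 0.31. None passed (adjusted p 0.988 to 0.993 by edgeR, and 0 members with an unadjusted p under 0.05 by edgeR, DESeq2 or limma-voom). Over all genes this test called 0% by edgeR, 0.047% by DESeq2 and 0% by limma-voom, and 4.55% had an unadjusted p under 0.05 by edgeR. The median was 0.08 without KO day 0 library 2 and 0.10 without KO day 14 library 2. All these comparisons share libraries, so their signs are not independent.

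The members varied more between libraries of a group than between groups. The SD of log2 CPM (counts scaled to the size of the library) within groups was 0.229 for H2-D1, 0.261 for Tap2, 0.349 for B2m, 0.465 for Tap1 and 0.675 for Nlrc5, against a median of 0.187 over all genes tested. Nlrc5 varied more than 93.6% of the genes tested. Groups accounted for 7.5% (B2m) to 23.3% (Tap2) of a member's variance, against a median of 22.3% over all genes. The constitutive proteasome subunits Psmb5, Psmb6 and Psmb7, which the inducible ones replace, had SDs of only 0.071, 0.072 and 0.054.

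This variation was shared. KO day 14 library 2 lay on average 0.76 above the mean of the 17 libraries in log2 CPM, from 0.35 for H2-D1 to 1.40 for Nlrc5, and was the highest or second highest library for all 10 members. WT day 14 library 5 lay 0.72 above the mean and was among the highest 2 for 9 members. KO day 0 library 2 lay 0.56 below the mean (deviation -0.56) and was the lowest of 17 for all 10. WT day 0 library 4, WT day 14 library 3 and WT day 14 library 6 lay above the mean in all 10 members, by 0.31, 0.22 and 0.15 on average. Genotypes and days are thus mixed at the top of this order. Pearson's r over the 17 libraries between members ran from 0.75 (H2-D1 and Tapbp) to 0.98 (H2-K1 and H2-D1) over the 45 pairs, with a median of 0.91. After taking off group means the median was 0.92. Without both libraries that stood apart it was 0.84, with a lowest r of 0.69. The pairs share the same libraries, and no p is given.

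**Figure D4:**
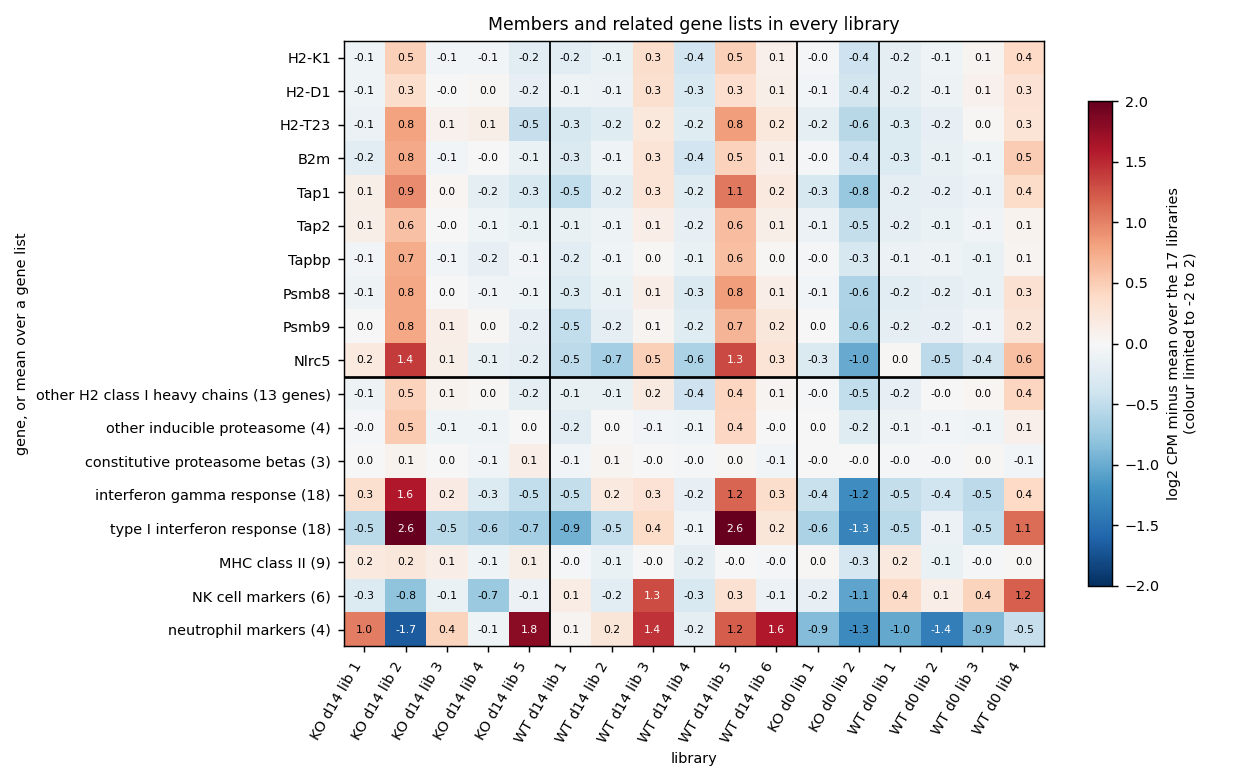
Log2 CPM minus the mean over the 17 libraries (colour and printed value) for each member (rows above the line) and as a mean over related gene lists (rows below it), with libraries in columns by group. KO day 14 library 2 and WT day 14 library 5 are high in the members and in both interferon lists, near 0 in the constitutive proteasome list, and opposite in neutrophil markers.

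The same libraries were high in genes that interferons are known to induce. The 18 genes of a type I interferon response list, such as Isg15, Mx1 and the Ifit genes, summed to 2336 FPKM in KO day 14 library 2 and 2295 FPKM in WT day 14 library 5, against 177.3 to 871.5 FPKM in the other 15 libraries. The highest of those 15 was WT day 0 library 4 and the lowest KO day 0 library 2, as in the members. The 18 genes of an interferon gamma response list, such as the Gbp and Irg GTPases and Cxcl9, summed to 999.9 and 804.3 FPKM in those 2 libraries, against 139.8 to 438.6 FPKM. Irf1, a factor that binds class I promoters, differed less, with 107.6 and 91.3 FPKM in the same libraries and 63.0 to 87.2 FPKM in the others.

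Messenger RNA of the interferons themselves was near the limit of detection. Ifng, made by NK and T cells, had 4 counts in KO day 14 library 2 and 5 counts in WT day 14 library 5, against 0 to 10 counts in the others. The 13 Ifna genes had 0 counts in all 17 libraries, which allows up to 3 counts of each per library, and Ifnb1 had 1 count in each of 2 libraries, KO day 0 library 1 and WT day 14 library 3. The Ifna genes and Ifnb1 were looked at after the interferon lists were seen. A difference in interferon mRNA between these libraries was not detectable at this depth.

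Some cell type markers differed between those libraries and others were high in both. Neutrophil markers (4 of 5 listed genes were in the files) summed to 89.4 FPKM in KO day 14 library 2, the lowest of all, and 694.0 FPKM in WT day 14 library 5, against 103.1 to 1239 FPKM in the others. T cell markers summed to 35.6 FPKM in KO day 14 library 2, the lowest of the 17, and 48.9 FPKM in WT day 14 library 5, against 41.9 to 75.6 FPKM. NK cell markers summed to 40.5 and 71.8 FPKM in these, against 21.2 to 139.7 FPKM. Monocyte markers summed to 108.6 FPKM in KO day 14 library 2 and 132.2 FPKM in WT day 14 library 5, against 48.7 to 110.7 FPKM in the others. Between these 2 lay WT day 0 library 4 (110.7 FPKM) and WT day 14 library 6 (109.1 FPKM), and KO day 0 library 2 was lowest (48.7 FPKM). By mean log2 CPM, relative to the mean of the 17 libraries, WT day 14 library 6 was highest (0.59) and KO day 0 library 2 lowest (-0.81). The values were 0.47 in KO day 14 library 2 and 0.39 in WT day 14 library 5. MHC class II genes summed to 2936 and 2103 FPKM, against 1830.0 to 2496 FPKM. None of the markers was at 0 counts in any library. The part of cell makeup in the members' levels was not tested, and in whole lung fewer cells of a type and less RNA per cell cannot be told apart.

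By their Pearson r over the 17 libraries with the mean of the members, the 8 most alike genes were Apol9b (0.975), H2-T10 (0.972), Zbp1 (0.968), Uba7 (0.964), RP24-499A8.3 (0.962, named Gm12250 in the reference), Gbp3 (0.962), Gbp10 (0.962) and H2-T22 (0.962). H2-T10 and H2-T22 are nonclassical heavy chains of the H2 region, Uba7 activates the ubiquitin-like protein Isg15, and Zbp1 is a sensor of Z-form nucleic acid. Zbp1 and Gbp3 are also on the interferon lists above. Zbp1 measured 103.1 CPM in KO day 14 library 2 and 90.2 CPM in WT day 14 library 5, against 3.91 to 29.2 CPM in the others. Without those libraries the r of the 8 genes was 0.893 to 0.936.

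Inducible and constitutive proteasome subunits take the same places in the particle, so their ratio in FPKM shows the balance of their messages. Psmb8 over Psmb5 measured 1.32, 2.36, 1.5, 1.4 and 1.31 in KO libraries 1 to 5 at day 14, against a lowest of 1.15 and a highest of 2.59 in WT libraries at day 14. At day 0 it measured 1.43 and 1.03 in KO libraries, against 1.33, 1.3, 1.31 and 1.96 in WT libraries. The day 14 means were equal, at 1.58 ± 0.441 in KO lungs and 1.58 ± 0.537 in WT lungs (SD, n = 5 and 6). Psmb9 over Psmb6 averaged 0.353 ± 0.1 in KO lungs and 0.327 ± 0.0896 in WT lungs at day 14, and 0.266 ± 0.0866 in KO lungs and 0.327 ± 0.0543 in WT lungs at day 0 (n = 2 and 4). Psmb10 over Psmb7, the remaining pair, averaged 1.37 ± 0.318 in KO lungs and 1.43 ± 0.297 in WT lungs at day 14, and 1.12 ± 0.173 in KO lungs and 1.22 ± 0.0697 in WT lungs at day 0. None of the 12 two-sided exact permutation tests of these ratios, 3 ratios in 4 comparisons, passed. Their adjusted p ran from 0.914 to 0.929, and the smallest raw p was 0.219, for Psmb10 over Psmb7 in WT lungs at day 14 against WT lungs at day 0. The smallest p these designs allow is 0.00216 between genotypes at day 14 and 0.00476 between days in WT. It is 0.0667 between genotypes at day 0 and 0.0476 between days in KO. With so few KO libraries at day 0, the tests of these last 2 comparisons could not pass after adjustment over the 12 tests. Nothing is drawn from their outcome. Psmb5, Psmb6 and Psmb7 together summed to 246.5 FPKM in KO day 14 library 2 and 245.9 FPKM in WT day 14 library 5, inside the 230.3 to 260.5 FPKM of the others, so the high ratios of 2.36 and 2.59 came from the inducible subunit.

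**Figure D5:**
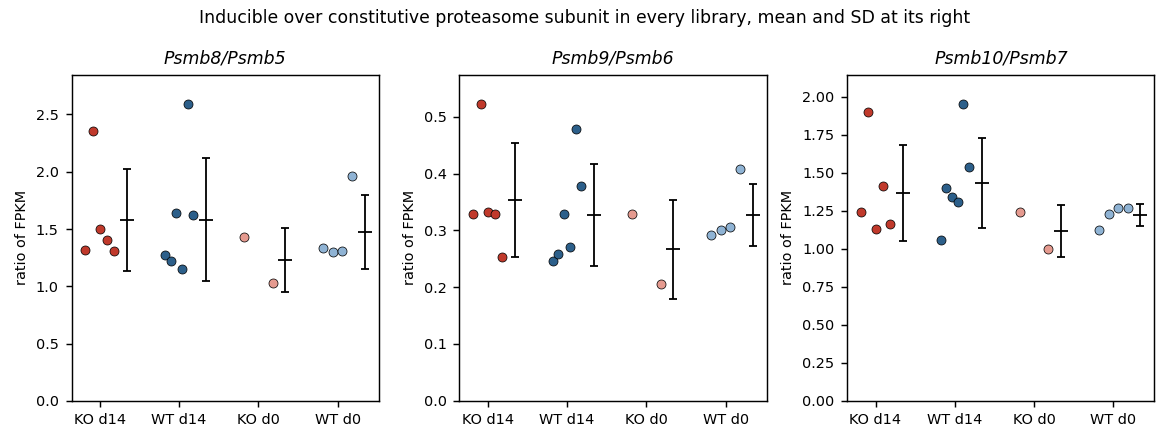
Ratio of FPKM (y axis, from 0) of each inducible proteasome subunit to the constitutive subunit it replaces, by group (KO d14, WT d14, KO d0, WT d0); points are libraries and the bar at the right of each group is the mean with the SD. The day 14 means of Psmb8 over Psmb5 are both 1.58, with 1 high library in each genotype.

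The rest of the pathway was read from lists. Of 167 list genes tested, members apart, edgeR and limma-voom called 0 in each of the 5 comparisons. DESeq2 called 1, the neutrophil marker Cxcr2 in WT lungs at day 14 against WT lungs at day 0. Unadjusted p by edgeR were under 0.05 for 18 of them between genotypes at day 14, 22 between genotypes at day 0, 24 between days in KO, 12 between days in WT and 6 for the difference of the KO effects. These are 10.8%, 13.2%, 14.4%, 7.19% and 3.59% of the list genes, against 8.95%, 6.74%, 9.05%, 9.06% and 4.55% of all genes. Of the 13 other class I heavy chains, 6 were positive and 7 negative in KO lungs against WT lungs at day 14, with a median of -0.01. The smallest p was that of H2-M2 (log2 0.87, adjusted p = 0.428). H2-Q4, H2-Q6, H2-Q7, H2-M3 and H2-T22 had log2 values of -0.06, -0.05, -0.04, -0.01 and 0.05. At day 0 all 13 were negative, with a median of -0.38, and 0 of 13 had an unadjusted p under 0.05 by edgeR. The 6 other loading factors, among them the tapasin homologue Tapbpl and the peptide-trimming enzyme Erap1, had a median of 0.09 at day 14, with log2 values of 0.10 for Tapbpl and 0.09 for Erap1. Here too KO day 14 library 2 was high, with a sum of 1083 FPKM against 833.7 to 981.0 FPKM in the 15 others, while WT day 14 library 5 was the lowest at 795.8 FPKM. The 4 other inducible proteasome genes, Psmb10, Psme1, Psme2 and Pomp, had a median of 0.05 at day 14 and -0.09 at day 0. They summed to 628.5 FPKM in KO day 14 library 2 and 567.5 FPKM in WT day 14 library 5, against 358.2 to 482.3 FPKM.

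Of the 18 regulators tested, 8 were positive and 10 negative at day 14 (median -0.01). Irf1 had a log2 value of 0.07 (SE 0.11) and Rfx5, a subunit of the complex that binds the X box of MHC promoters, 0.13 (SE 0.0881). At day 0, Irf8, a factor of myeloid cells, had the smallest p of this list (log2 -0.48, adjusted p = 0.661 by edgeR). The type I interferon list had a median of -0.04 at day 14 and -1.10 at day 0, where all 18 were negative and 0 had an unadjusted p under 0.05. Within the day 0 groups its summed level was lowest in KO day 0 library 2 and highest in WT day 0 library 4, and the part of these libraries in the median was not tested.

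Receptors that bind class I had negative values on both days. All 11, which include the CD8 chains and the Klr receptors of NK cells, were negative in KO lungs against WT lungs at day 14, with a median of -0.57 on the log2 scale, and 2 of 11 had an unadjusted p under 0.05 by edgeR against 8.95% of all genes. The smallest p was that of Klrc1, part of the receptor for Qa-1 (log2 -0.96, adjusted p = 0.439 by edgeR). At day 0, 10 of 11 were negative with a median of -1.08, 4 had an unadjusted p under 0.05 by edgeR against 6.74% of all genes, and the smallest p was that of Klrc2 (log2 -2.03, adjusted p = 0.661 by edgeR). NK cell markers showed the same signs, with 6 of 6 negative on both days, medians of -0.70 at day 14 and -1.13 at day 0, and unadjusted p under 0.05 in 3 and 5 of 6, against 8.95% and 6.74% of all genes. Their summed level was 38.1 to 55.6 FPKM in KO lungs and 45.9 to 139.7 FPKM in WT lungs at day 14. At day 0 it was 21.2 and 51.1 FPKM in KO lungs and 59.2 to 126.2 FPKM in WT lungs. The 139.7 FPKM was that of WT day 14 library 3, and the next highest WT library at day 14 was library 5 with 71.8 FPKM. How far the day 14 values of both lists rest on WT day 14 library 3 was not tested. The lists were also fitted without KO day 14 library 2 and WT day 14 library 5. In that fit 8 of the 11 receptors and 6 of the 6 NK markers were negative at day 14, with medians of -0.43 and -0.61. There, 1 receptor and 0 NK markers had an unadjusted p under 0.05 by edgeR at day 14, and 2 and 3 at day 0. The part of NK cell number in the receptor values was not tested. None of these genes passed, so a lower receptor level in KO lungs is not shown.

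Several members share sequence with other genes, and the counting software divides such reads by estimate. Only the protein-coding transcripts of each member were searched, against all transcripts of other genes. Of all 50-base stretches of the H2-T23 transcripts searched, 29.8% also occur in transcripts of other genes, led by H2-T-ps. The shares were 13.9% for H2-D1, 6.9% for H2-K1 and 0% for B2m and Nlrc5. The reference is of C57BL/6J mice, whose H2 alleles differ from those of FVB mice, and the effect on the heavy chain levels was not tested. Overlapping genes also touch members: Tap1 and Psmb9 overlap by 212 bases on opposite strands, and 22.4% of the Tapbp stretches are shared, mostly with the antisense gene Gm19412. B2m lies wholly within the span of Patl2, and H2-T23 within that of an antisense gene, each on the opposite strand. Nlrc5, Tap2 and Psmb8 overlap genes on the opposite strand in part. The protein-coding B2m transcripts shared no stretches, yet B2m counts were whole numbers in only 9 of 17 libraries. Whether strand was used in counting is not given in the sources used here, so reads of such pairs cannot be told apart. Nlrc5 had no shared stretches in the transcripts searched and whole-number counts in 17 of 17 libraries. Its highest library was KO day 14 library 2 and its lowest KO day 0 library 2. The part of shared reads in the library pattern of the members was not tested.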

How the data were processed

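The deposited files hold gene counts for each of the 17 libraries and a joint FPKM table by the authors. The count unit is not named in the headers; the deposited values are taken to be the expected counts of RSEM, since 13.86 to 17.14% of genes in a library are not whole. Per the submitters' processing notes STAR 2.5.3, RSEM 1.3.0 and limma 3.38.3 were used with build mm10; the annotation release and strand setting are not given in the sources used here, and libraries were made with Qiagen RNeasy and Illumina TruSeq reagents per the labels' protocols. The FPKM (fragments per kilobase, scaled to library size) are used as the authors deposited them. No other column of sample values was left unused (0).

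Counts were rounded and filtered with filterByExpr, leaving 19557 genes. One model with 4 groups was fitted with TMM scaling (factors 0.977 to 1.01) in edgeR 4.0.16 (R 4.3.3, robust quasi-likelihood; common biological coefficient of variation 0.152). A gene was called at a Benjamini-Hochberg adjusted p under 0.05 over all genes. Intervals use the SE and a t quantile at 95%. DESeq2 1.42.0 and limma-voom (limma 3.58.1) used the same genes. Other settings were RLE or total scaling, no filter, only the compared groups, limma on log2(FPKM + 1) or log2(FPKM + 0.1), and each library left out; leaving out both high libraries was chosen after the data were seen. Log2 CPM have a prior count of 2. Ratios were compared by exact two-sided permutation of log2 values. The members and lists were chosen with earlier results of these data known. Named genes are the members, fixed partners and regulators, the gene with the smallest p of each list, and the 8 genes most like the members; 1 fixed regulator is not reported here. Promoter windows were searched with a script. Of the listed marker genes, Retnlg had no match by symbol. No library was a copy of another. The model code was tested on simulated data. Tables and plots were made with pandas 2.3.3, scipy 1.17.1 and matplotlib 3.10.9. Intervals and the floor of 3 counts cover the spread between libraries and counting error only.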

Additional observations from a re-analysis of the deposited data

Results flagged for a closer look

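Within a group of 4 to 6 libraries, a value was marked when its gap to the nearest library took up most of the group's range (Dixon's test at 95%). Of 45 groups tested over the members and ratios, 19 were marked, where chance alone marks about 1 in 20; members vary together, so these are not 19 separate events. No explanation was tested.

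KO day 14 library 2 stood above the other 4 libraries of its group in H2-K1 (1040.0 CPM), B2m (1386 CPM), Tap1 (166.5 CPM), Tapbp (532.5 CPM), Psmb8 (155.7 CPM), Psmb9 (77.3 CPM) and Nlrc5 (100.5 CPM), and in the ratio of Psmb8 to Psmb5 (2.36). WT day 14 library 5 stood above the other 5 of its group in H2-T23 (141.6 CPM), Tap1 (178.2 CPM), Tap2 (196.1 CPM), Tapbp (480.2 CPM) and Psmb8 (161.0 CPM), and in the ratio of Psmb8 to Psmb5 (2.59). WT day 0 library 4 stood above the other 3 of its group in Tap1 (110.7 CPM), Tapbp (331.4 CPM) and Psmb8 (112.7 CPM), and in the ratios of Psmb8 to Psmb5 (1.96) and of Psmb9 to Psmb6 (0.408). Every marked value was a high one. KO lungs at day 0 have 2 libraries and could not be examined this way.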

How the results depend on the processing

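The count of members called stayed at 0 in every comparison fitted under every setting tried: DESeq2, limma-voom, RLE factors, library totals, no filter, only the compared groups, limma on log2 FPKM with pseudocounts of 1 and 0.1 and without a filter, each of the 17 libraries left out, and both high day 14 libraries left out. All 5 comparisons were fitted in each setting, except that the difference of KO effects was not fitted with only the compared groups. No change of test, scaling, filter or unit reversed a member's log2 fold change; leaving out libraries did. With 1 library left out at a time, the log2 ranges of results that changed sign were as follows: for KO against WT at day 14, H2-K1 -0.17 to 0.06, H2-D1 -0.12 to 0.04, H2-T23 -0.21 to 0.20, B2m -0.15 to 0.16, Tap1 -0.27 to 0.26, Tap2 -0.12 to 0.15, Tapbp -0.14 to 0.20, Psmb8 -0.18 to 0.22, Psmb9 -0.05 to 0.31, Nlrc5 -0.23 to 0.54, Psmb8 over Psmb5 -0.14 to 0.17, Psmb9 over Psmb6 -0.04 to 0.23 and Psmb10 over Psmb7 -0.19 to 0.02; for KO against WT at day 0, Tapbp -0.25 to 0.05, Psmb9 -0.60 to 0.04, Psmb9 over Psmb6 -0.66 to 0.02 and Psmb10 over Psmb7 -0.29 to 0.02; for day 14 against day 0 in WT, H2-K1 -0.10 to 0.13, H2-D1 -0.04 to 0.13, H2-T23 -0.03 to 0.27, B2m -0.07 to 0.22, Tap1 -0.05 to 0.35, Tapbp 0.00 to 0.18, Psmb8 -0.03 to 0.30, Psmb9 -0.08 to 0.19, Nlrc5 -0.13 to 0.51, Psmb8 over Psmb5 -0.09 to 0.21 and Psmb9 over Psmb6 -0.15 to 0.08; for the difference of KO effects between days, Tapbp -0.06 to 0.31. Without KO day 14 library 2 and WT day 14 library 5 together, KO against WT at day 14 was -0.02 for H2-T23, -0.06 for B2m, -0.01 for Tap1 and 0.00 for Tapbp, and day 14 against day 0 in WT was -0.03 for H2-D1, -0.03 for H2-T23, -0.07 for B2m, -0.05 for Tap1, 0.00 for Tapbp, -0.03 for Psmb8, -0.08 for Psmb9 and -0.12 for Nlrc5. These changes of sign follow from which libraries were in the fit. With ratios of CPM in place of FPKM, the log2 difference was 0.00 for Psmb8 over Psmb5 and 0.01 for Psmb10 over Psmb7 in KO against WT at day 14, and 0.02 for Psmb9 over Psmb6 at day 14 against day 0 in WT; the cause was not tested. Of the 8 genes most like the members, 2 were among the 8 by Spearman's rho and 5 after group means were taken off, and the cause was not tested. Where a fit left KO day 0 with 1 library, that library was assumed to vary like the other groups. No paired analysis was possible because the labels give no shared replicate numbers; library numbers only name samples in accession order. With 2 KO libraries at day 0 the intervals are wide: for Nlrc5 the fold could lie between 0.259 and 1.67 of WT. Depth was no limit for the members, but Ifng had at most 10 counts in a library.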

Other observations

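Genes of the MHC class II pathway, which presents peptides taken up from outside the cell to CD4 T cells, were set beside the class I members. All 9 had positive values in KO lungs against WT lungs at day 14, with a median of 0.19 on the log2 scale, and 5 of 9 had an unadjusted p under 0.05 by edgeR, against 8.95% of all genes. None was called. The invariant chain Cd74 had the smallest p (log2 0.24, SE 0.0827, adjusted p = 0.394 by edgeR). The beta and alpha chains H2-Ab1 (log2 0.19, SE 0.088) and H2-Aa (log2 0.16, SE 0.0733) were also among the 5. These genes were singled out after their values were seen. Ciita, the class II counterpart of Nlrc5, had the smallest p of the interferon gamma list (log2 0.43, SE 0.126, adjusted p = 0.331 by edgeR). Without KO day 14 library 2 all 9 class II genes were still positive, with a median of 0.14, and 0 had an unadjusted p under 0.05 by edgeR. Without WT day 14 library 5 the median was 0.20, with 3 such genes, and without both it was 0.15, with 1. Of the class I members, 0 of 10 were positive without KO day 14 library 2. Without WT day 14 library 5, 10 of 10 were positive, and without both, 4 of 10 were. Leaving out these libraries was chosen after seeing the data. At day 0, 3 of 9 class II genes were positive and 6 negative in KO lungs against WT lungs, with a median of -0.05. Dendritic cells are rich in class II, and their 5 markers summed to 40.8 to 56.7 FPKM in KO lungs and 38.4 to 52.5 FPKM in WT lungs at day 14. Their median log2 value was 0.30, above that of class II, with 3 of 5 positive. Xcr1 had 0.46 (SE 0.219), Flt3 0.34 (SE 0.119, adjusted p = 0.394 by edgeR) and Clec9a 0.30 (SE 0.148). Itgax (-0.02, SE 0.135) and Zbtb46 (-0.07, SE 0.121) were negative. By mean log2 CPM the 5 dendritic cell markers were highest in KO day 14 library 2, at 0.41 above the mean of the 17 libraries. Their part in the class II values was not tested.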
